A study of Mus musculus with 2 samples.

Results

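The miR-30 family of the mouse was examined in 2 microRNA-seq libraries from the gastrocnemius, the large calf muscle that mixes fast and slow fibres. Its members are the 6 genes annotated in GENCODE M21 as Mir30a, Mir30b, Mir30c-1, Mir30c-2, Mir30d and Mir30e, of 2202 microRNA genes in the count tables. The rule goes by gene name and uses no measured value. Both libraries came from male B6CASTF1/J mice aged 36 days, an F1 hybrid of C57BL/6J and CAST, with no treatment, transgene or deletion given in the labels. The labels number them as biological replicates 1 and 2 of 1 group and describe 2 different males, although both carry the same donor identifier, so part of the spread between them could be technical. With 1 group there is no comparison between conditions, so the comparisons are among members within the muscle and between the animals.

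MicroRNAs are cut from RNA hairpins, and 1 or both arms (5p and 3p) are loaded into Argonaute proteins. There the seed, bases 2 to 8 counted from the 5′ end, pairs with target messenger RNAs and lowers their output. All miR-30 genes make a 5p product with a common seed. In striated muscle the family is known for favouring myoblast differentiation, with the silencing protein Tnrc6a among its targets, and for restraining connective tissue growth factor in the heart. Elsewhere miR-30a is known as a repressor of the autophagy gene Becn1.

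RefSeq (build GRCm38.p6) gave sequences for 4 of the 6 members, and none is printed for Mir30b and Mir30d. The 5p products are shown first because the common seed defines the family, and capitals mark bases 2 to 8. miR-384-5p, from a gene outside the family's name, is set beside them because it has the same seed.
miR-30a-5p: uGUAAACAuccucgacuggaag
miR-30e-5p: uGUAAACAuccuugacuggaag
miR-30c-5p: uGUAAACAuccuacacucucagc
miR-384-5p: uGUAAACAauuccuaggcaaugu

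Positions in mature products are counted from 1 at the 5′ end. miR-30a-5p and miR-30e-5p differ at 1 position, C13U. Both share their first 12 bases with miR-30c-5p, and all of these share their first 8 bases with miR-384-5p. Of 1679 mature products in the RefSeq table, 4 have GUAAACA at bases 2 to 8, or 0.238%, and these are the 4 printed above.

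The 3p products form 2 seed groups of their own, again with bases 2 to 8 in capitals.
miR-30a-3p: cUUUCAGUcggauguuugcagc
miR-30e-3p: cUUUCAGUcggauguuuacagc
miR-30c-1-3p: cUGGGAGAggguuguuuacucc
miR-30c-2-3p: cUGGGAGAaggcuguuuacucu

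miR-30a-3p and miR-30e-3p differ at 1 position, G18A. The 3p products of the Mir30c genes differ at 3, which are G9A, U12C and C22U from miR-30c-1-3p to miR-30c-2-3p. A count per gene adds both arms, so the tables do not say which arm was sequenced.

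The hairpins of Mir30c-1 and Mir30c-2 are shown because their common stretch bears on how their reads can be counted. Capitals mark the longest run they share, which is 28 bases long and holds the whole of miR-30c-5p.
Mir30c-1: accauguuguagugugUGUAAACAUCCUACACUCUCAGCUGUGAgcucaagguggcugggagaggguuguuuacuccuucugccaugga
Mir30c-2: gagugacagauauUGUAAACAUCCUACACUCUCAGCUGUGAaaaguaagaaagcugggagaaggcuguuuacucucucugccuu

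A read of miR-30c-5p fits both hairpins equally well. Among 1004 other hairpins of the RefSeq table, each Mir30c hairpin shared 20 or more bases with 1, its own copy. Mir30a and Mir30e shared 20 or more bases with none, and their longest run, 18 bases, was with each other and lies across the 3p arm.

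The genes stand in 3 pairs, each pair on 1 strand. Mir30a (chr1:23272269-23272339, ENSMUSG00000065405.3) and Mir30c-2 (chr1:23291701-23291784, ENSMUSG00000065567.1) lie on the plus strand of chromosome 1 with 19361 bases between them. Mir30c-2 is within an exon of the long noncoding RNA Gm27028, and no other annotated gene overlaps Mir30a. Mir30d (chr15:68341208-68341289, ENSMUSG00000065437.1) and Mir30b (chr15:68337415-68337510, ENSMUSG00000065476.2) lie on the minus strand of chromosome 15, 3697 bases apart. Mir30d is within an exon of the long noncoding RNA Gm20732 and also partly overlaps Gm37296, and Mir30b partly overlaps the noncoding transcript Gm26621. Mir30e (chr4:120772606-120772697, ENSMUSG00000065409.1) and Mir30c-1 (chr4:120769534-120769622, ENSMUSG00000065490.1) lie on the minus strand of chromosome 4, 2983 bases apart. Both are in an intron of Nfyc, which encodes a subunit of the transcription factor NF-Y. All positions are in mm10.

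Counted reads, those on a microRNA gene's own strand, numbered 4134880 in replicate 1 and 3219740 in replicate 2. Of all reads, 70.4% and 73.3% aligned to several loci, and the per-gene counts are read here as leaving these out. The 8 listed skeletal muscle microRNAs, which include Mir206, Mir1a-2 and Mir499, were all counted. Their summed share was 2.66% of counted reads in replicate 1 and 2.95% in replicate 2. Nearly all of it was Mir206, with 106820 and 92373 counts, while Mir133a-2 had 13 and 11. Genes with several copies, such as Mir1a-1 and Mir1a-2, can miss reads that fit more than 1 of them. The share is therefore not a total for muscle microRNAs. Of the 4 neuron markers, the 3 Mir124a loci were at 0 in both libraries, which says nothing of reads that fit several loci. In bulk tissue, fewer cells of a type and less RNA per cell cannot be told apart.

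By counted reads, 3 genes of the family were high and 3 were low. However, the counts of the Mir30c genes, which are 2 of the low ones, can miss reads of miR-30c-5p. For Mir30b, the other low one, and for Mir30d, shared sequence could not be checked without a RefSeq entry. Mir30a, Mir30d and Mir30e held 98.8% ± 0.0434 of the family's counted reads (SD, n = 2), and Mir30b, Mir30c-1 and Mir30c-2 held the other 1.23% ± 0.0434. Levels below are in CPM, that is, counts scaled so that the counted reads of each library sum to 1000000. The mature products of the 4 members with a RefSeq entry are 22 or 23 bases long, so levels were not scaled for length.

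Mir30a, the source of miR-30a-5p, led the family with 95563 counts in replicate 1 and 78045 in replicate 2. These were 23111 and 24239.5 CPM, a mean of 23675.5 ± 798 (SD, n = 2). It ranked in place 13 of all genes in replicate 1 and in place 11 in replicate 2. Mir30a alone made up 51.6% of the family in replicate 1 and 53.2% in replicate 2. Their 95% binomial intervals by the exact Clopper-Pearson method were 51.3 to 51.8 and 53.0 to 53.5. Such intervals take in counting error alone and leave out any spread between libraries. They treat each read as independent, although several reads can be PCR copies of 1 molecule, so they can be too narrow.

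Mir30d had 53891 and 39582 counts, or 13033 and 12293.5 CPM, with a mean of 12663 ± 523. Its share of the family was 29.1% in replicate 1 and 27.0% in replicate 2, with intervals of 28.9 to 29.3 and 26.8 to 27.2 that do not overlap. It was the only member with a higher CPM in replicate 1.

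Mir30e had 33600 and 27165 counts, or 8126 and 8437 CPM, with a mean of 8281.5 ± 219.9. It made up 18.1% and 18.5% of the family. Although its 5p product differs from miR-30a-5p by 1 base, its counted level was 2.86-fold lower than that of Mir30a, with a log2 ratio of Mir30a over Mir30e of 1.52 ± 0.01 (n = 2). The ratio was nearly the same in both animals, at 2.84-fold and 2.87-fold.

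Mir30b had 1142 and 915 counts, or 276 and 284 CPM. Its mean of 280.2 ± 5.66 CPM put it in place 112 of all genes. It made up 0.616% of the family in replicate 1 and 0.624% in replicate 2, and the intervals of 0.581 to 0.653 and 0.584 to 0.666 overlap.

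Mir30c-2 had 744 and 658 counts, which were 179.9 and 204 CPM, with a mean of 192 ± 17.3. Mir30c-1 was the lowest member, with 339 and 278 counts, or 82.0 and 86.3 CPM and a mean of 84.2 ± 3.08. Both genes encode miR-30c-5p. A read of that product should align to both loci and so be counted in neither, and these counts then cover only reads that fit 1 locus, such as those of the 3p arms or reads that extend past the shared run. In replicate 1 the combined count of the Mir30c genes was 88.2-fold below Mir30a, and in replicate 2 it was 83.4-fold below. An added 0.681% of the reads aligned to several loci in replicate 1, or 0.628% in replicate 2, would have brought that sum up to Mir30a. The place of miR-30c within the family is therefore not given by these tables.

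**Figure D1:**
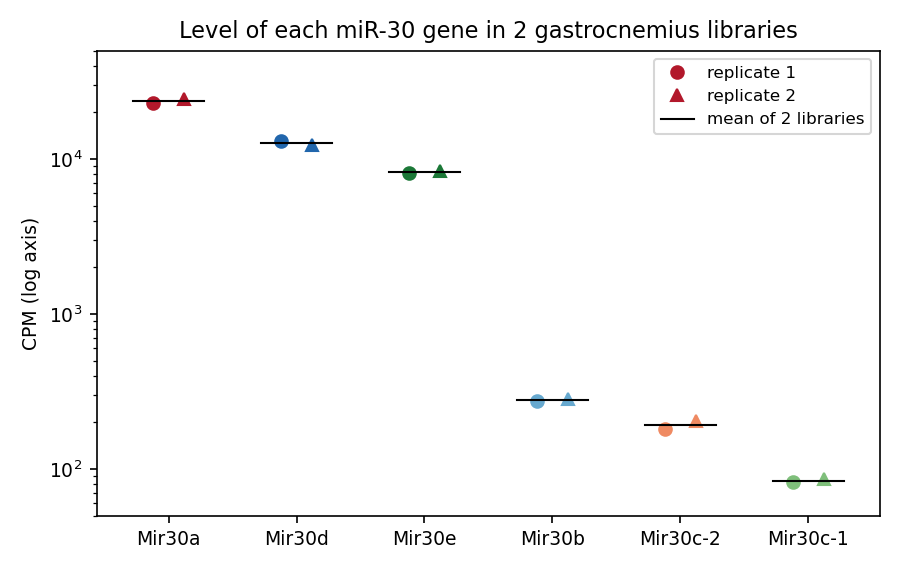
CPM (log axis) of each miR-30 gene in replicate 1 (circles) and replicate 2 (triangles), with the mean of the 2 libraries as a line. Mir30a, Mir30d and Mir30e stand between 8126 and 24239.5 CPM and the other 3 genes between 82.0 and 284 CPM, and no gene's pair of values overlaps that of another gene.

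The order from Mir30a through Mir30d, Mir30e, Mir30b and Mir30c-2 down to Mir30c-1 was the same in both libraries. In all 15 pairs of members the log2 ratio had the same sign in both, and its mean was more than 2 times its SD. The narrowest step was Mir30b over Mir30c-2, at 1.46-fold (log2 ratio 0.55 ± 0.10). Next came Mir30d over Mir30e at 1.53-fold (log2 ratio 0.61 ± 0.10). The widest step between neighbours in this order was Mir30e over Mir30b, at 29.5-fold (log2 ratio 4.88 ± 0.01), and it separates the abundant genes from the low-count ones. With 2 libraries, the smallest two-sided p that flipping signs can give in an exact test is 0.5, so none of these ratios can pass one.

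Each genomic pair held 1 abundant and 1 low-count gene, and in each the abundant gene came first in the direction of transcription. This pattern was noticed after the values were seen. On chromosome 1, Mir30a exceeded Mir30c-2 by 123-fold (log2 ratio 6.95 ± 0.08). On chromosome 15, Mir30d exceeded Mir30b by 45.2-fold (log2 ratio 5.50 ± 0.09). In the Nfyc intron, Mir30e exceeded Mir30c-1 by 98.3-fold (log2 ratio 6.62 ± 0.01). The ratios on chromosomes 1 and 4 rest on a Mir30c gene, whose count can miss reads of miR-30c-5p. Whether reads of Mir30d and Mir30b fit other loci was not checked, so the chromosome 15 ratio has an open limit too.

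Summed by pair, chromosome 1 gave 52.8% ± 1.2 of the family's counted reads, chromosome 15 gave 28.7% ± 1.48 and the Nfyc intron gave 18.5% ± 0.280. The chromosome 1 share was higher in replicate 2 (53.7% against 52.0%), and the chromosome 15 share was higher in replicate 1 (29.7% against 27.6%). Shares within a family add to a fixed total, so these shifts are not independent of each other.

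**Figure D2:**
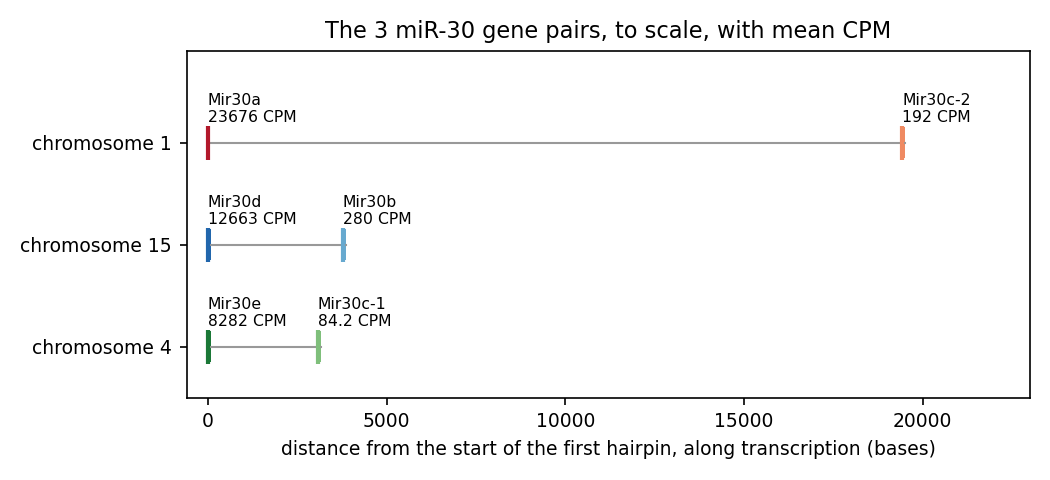
The 3 genomic pairs of miR-30 genes drawn to scale, with distance in bases from the start of the first transcribed hairpin and the mean CPM of 2 libraries beside each gene. The gene at the left of each line (Mir30a, Mir30d or Mir30e) is the abundant one of its pair, and the gaps are 19361, 3697 and 2983 bases.

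As a whole, the family held 185279 counts in replicate 1 and 146643 in replicate 2. Its share of counted reads was 4.48% (95% interval 4.46 to 4.50) and 4.55% (4.53 to 4.58). Measured against all reads, those aligned to several loci included, the same counts were 0.939% in replicate 1 and 0.875% in replicate 2.

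For each member, the other microRNA gene nearest in level over both libraries was identified, by Euclidean distance of log2(CPM + 1). These were Mir26b for Mir30a (distance 0.22, with 22183 ± 1842 CPM), Mir10b for Mir30d (0.21) and Mir100 for Mir30e (0.20). For the low-count genes they were Mir615 for Mir30b (0.13), Mir193b for Mir30c-2 (0.07) and Mir3102 for Mir30c-1 (0.17). With 2 libraries this measures only a like level.

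**Figure D3:**
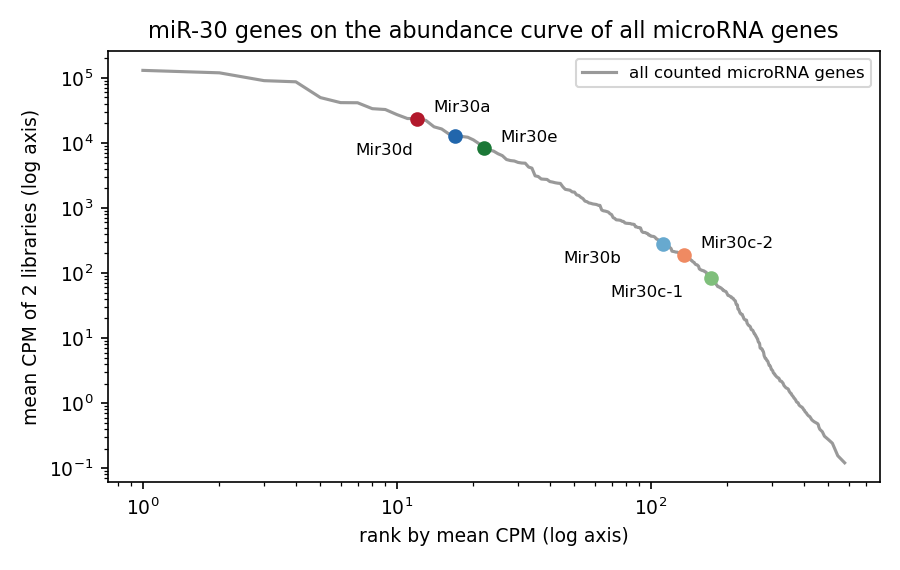
Mean CPM of 2 libraries (log axis) against rank (log axis) for all counted microRNA genes (grey line), with the 6 miR-30 genes as points. Mir30a, Mir30d and Mir30e lie at places 12, 17 and 22, while Mir30b, Mir30c-2 and Mir30c-1 lie at places 112, 135 and 172.

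Genes were then grouped by seed, over the 1018 genes of the tables with a RefSeq mature product, which held 76.9% of counted reads in replicate 1 and 74.8% in replicate 2. A gene entered the group of each of its arms. Of 58 seeds carried by at least 3 genes, GUAAACA ranked in place 3 with 32235 ± 1036 summed CPM (n = 2). That group held 5 genes, Mir30a, Mir30c-1, Mir30c-2, Mir30e and Mir384. The let-7 seed GAGGUAG, led by Mirlet7g, stood above it at 136319 ± 6728 CPM, and so did ACCCGUA of Mir99a, Mir99b and Mir100 at 32355 ± 2872, which differed from it by less than the SD. Below it were GGAAUGU, led by Mir206, at 27262 ± 2019 CPM and AGCAGCA, led by Mir322, at 25180 ± 3142. With Mir30b and Mir30d added by family name, the sum was 45178.5 ± 518 CPM and the place was 2. Other groups were not completed by name, and genes without a RefSeq entry could raise them too, as could reads that fit several loci. The places hold only among those 58 seeds. Some single genes outside these groups stood above both sums, such as Mir378a at 130385 CPM, Mir22 at 119561 CPM and Mir126a at 90623 CPM. Mir378a was the most abundant gene of all.

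The seed relative Mir384 (ENSMUSG00000065499.1, on the minus strand of chromosome X) is known mainly from brain. It had 13 counts in replicate 1, or 3.14 CPM, and 0 in replicate 2, where a count of 0 allows up to 0.932 CPM. Its count in replicate 1 was 0.0136% of that of Mir30a.

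The gene Mir30f is annotated on the strand opposite Mir30e, over exactly the same interval of the Nfyc intron. Its mature product is shown because it holds the family's GUAAACA, in capitals, 1 base earlier than the 5p products do, so that its bases 2 to 8 read UAAACAU.
miR-30f: GUAAACAuccgacugaaagcuc

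On the strand of Mir30f no read was counted in either library, although the interval is deeply covered. A count of 0 allows up to 3 counts, or 0.00893% of the Mir30e count in replicate 1 and 0.0110% in replicate 2. All 33600 reads of the interval in replicate 1 and all 27165 in replicate 2 lay on the strand of Mir30e. The other 5 members likewise had 0 reads on their opposite strand in both libraries. Because the genes overlap, the deposited column that ignores strand gives 0 for Mir30e in both libraries, and its reads there equal 3.40% of those set aside as ambiguous in replicate 1 and 3.26% in replicate 2. For the other 5 members, that column and the column for the gene's strand hold the same counts.

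Between the animals, every miR-30 gene lay above the typical microRNA gene in replicate 2 relative to replicate 1. The log2 ratio of replicate 2 over replicate 1 was taken on CPM + 1 with TMM scaling. This scaling sets the libraries level by a trimmed mean over genes, with factors taken before any minimum was applied. Ratios were then compared over the 261 genes whose mean CPM was 10 or more. All 6 members passed this minimum. The ratio was 0.24 for Mir30a, 0.083 for Mir30d, 0.22 for Mir30e, 0.21 for Mir30b, 0.35 for Mir30c-2 and 0.24 for Mir30c-1. All 6 were thus above 0, beside 44.1% of all genes tested, and their median was 0.23 beside −0.05 for all genes.

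The choice of scaling moves every gene together. The median of all genes tested was −0.05 with TMM, −0.21 when scaled to the total count and 0.00 with DESeq2 size factors. Scaled to the total count, 5 of 6 members were above 0 (20.3% of all genes), and Mir30d was at −0.084. With DESeq2 size factors, 6 of 6 were above 0 (51% of all genes). Relative to the median of all genes, the members' median was higher by 0.28, 0.27 and 0.28 under TMM, total count and DESeq2 size factors, and all 6 members lay above that median each time (49.8% of all genes do).

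These differences were small. With TMM scaling, Mir30c-2 alone was higher by more than 1.2-fold, at 1.27-fold, beside 15.7% of all genes tested. With total count scaling 0 members were (4.21% of all genes), and with DESeq2 size factors 4 were (17.6%). None of the 6 passed 2-fold in either direction under any of the 3 scalings, while 5.36%, 6.51% and 4.98% of all genes did with TMM, total count and DESeq2 size factors. Counting error alone gives the ratio of Mir30c-2 a standard error of 0.077 and that of Mir30c-1 one of 0.12 on the log2 scale, against 0.0070 for Mir30a. The wider value of Mir30c-2 is thus within 2 standard errors of the 0.24 of Mir30a. Each ratio rests on 1 library per side and has no replicate check, and genes of 1 pair share a locus.

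How the spread between the animals compared with that of other genes depended on the scaling. Scaled to the total count, the SD of CPM over the 2 libraries was 2.02% of the mean for Mir30b, 2.66% for Mir30e, 3.37% for Mir30a, 3.66% for Mir30c-1, 4.13% for Mir30d and 8.99% for Mir30c-2. The median of this value over the 261 genes was 11.8%. Among those genes, 8.05% had a smaller value than Mir30b and 37.2% had a smaller value than Mir30c-2. With TMM scaling, 5 of 6 members differed between the libraries by more than the median gene. The share of genes with a smaller absolute log2 ratio was then 53.6% for Mir30b, 56.3% for Mir30e, 57.1% for Mir30a, 57.9% for Mir30c-1 and 73.2% for Mir30c-2, against 24.1% for Mir30d.

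**Figure D4:**
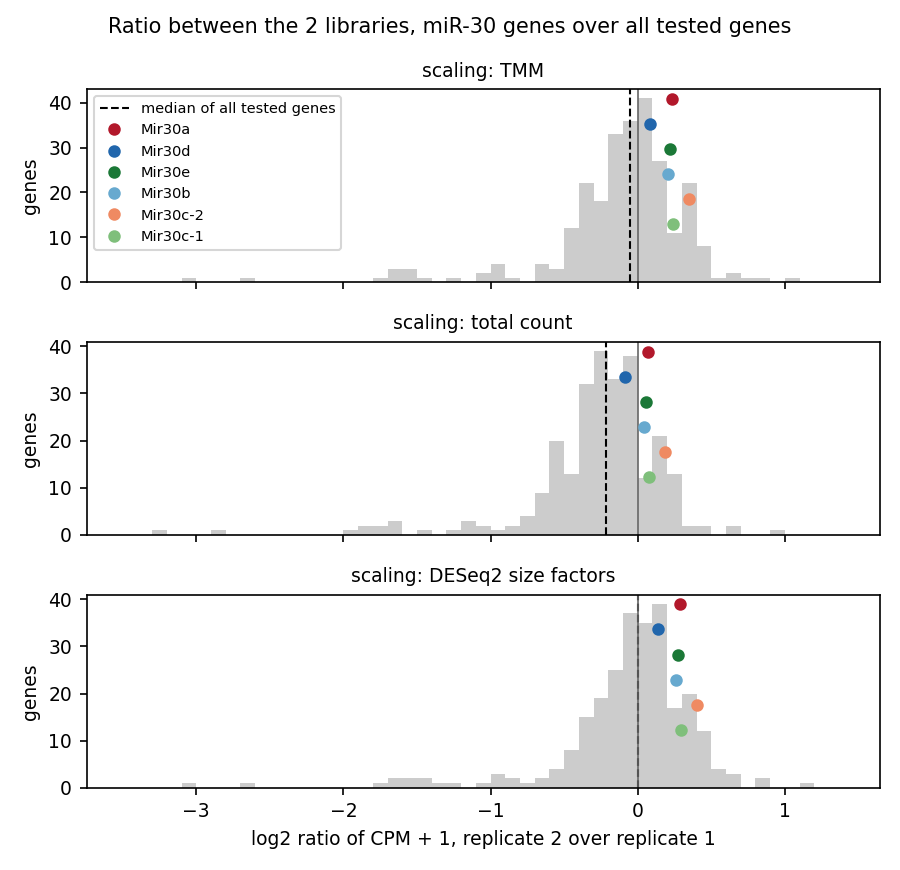
Number of genes (grey bars, 261 genes) by log2 ratio of CPM + 1, replicate 2 over replicate 1, under 3 scalings, with the median of all genes as a dashed line and each miR-30 gene as a point (its height has no meaning). The points span 0.083 to 0.35 with TMM, −0.084 to 0.18 with total count and 0.14 to 0.40 with DESeq2 size factors, to the right of the dashed line each time.

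MicroRNAs known for a part in muscle differentiation were set beside the family, as a list of 19 genes chosen with earlier results of these data known. Of its 18 genes with at least 10 CPM, 11 were higher and 7 lower in replicate 2 with TMM scaling, beside 44.1% of all genes that were higher, and the median log2 ratio was 0.16. Higher by more than 1.2-fold were 8 of the 18, beside 15.7% of all genes, among them the muscle microRNAs Mir206 (0.32), Mir499 (0.38) and Mir486 (0.39). Mir29a, a repressor of collagen genes, was at 0.26. Among the lower genes, Mir322 was at −0.12, the muscle microRNA Mir133a-1 at −0.16 and Mir26a-2 at −0.22. Several listed genes are copies, whose counts can miss reads that fit more than 1 of them. Mir26a-1, in contrast to Mir26a-2, was at 0.33, and Mir181a-2 was at 0.77 against −0.16 for Mir181a-1. Mir1a-1 and Mir1a-2 were both higher (0.41 and 0.31), and Mir29b-1 and Mir29b-2 both lower (−0.05 and −0.16). The split of 11 and 7 is thus by gene and not by mature product. Scaled to the total count, 9 of 18 were higher, beside 20.3% of all genes. Mir206, Mir499 and Mir486 were then at 0.15, 0.21 and 0.22, each below 1.2-fold, while Mir181a-2 was above it at 0.61.

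Markers of other cell types were set beside these ratios, and some of them differed between the animals. The glia list, with 3 of 3 genes counted, summed to 0.430% of counted reads in replicate 1 and 0.124% in replicate 2. Nearly all of that sum was Mir338, at 4285 and 1236 CPM. Mir219a-2 was also lower in replicate 2, at 9.19 and 4.66 CPM, while Mir219a-1 was at 3.14 and 3.42 CPM. The neuron list, with 1 of 4 counted, summed to 0.00510% and 0.00137%. The liver microRNA Mir122 summed to 0.00206% and 0.000466%, and the epithelial list, with 3 of 3 counted, to 0.0230% and 0.0212%. Nearly all of the epithelial sum was Mir203, at 219.6 and 207.5 CPM. Mir200c was at 6.53 and 3.42 CPM and Mir205 at 3.63 and 1.24 CPM, both lower in replicate 2. Endothelial Mir126a held 8.54% in replicate 1 and 9.58% in replicate 2, and the smooth muscle pair Mir143 and Mir145a held 8.53% and 9.36%. The leukocyte list, with 5 of 5 counted, stood at 0.233% and 0.242%, with Mir155 higher in replicate 2 (711 and 871 CPM) and Mir223 lower (436 and 300.3 CPM). The red cell list, with 2 of 2 counted, was close in both, at 0.0405% and 0.0394%. The part of these cell types in the ratios of the miR-30 genes was not tested.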

How the data were processed

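Small RNA of gastrocnemius was sequenced in 2 libraries. The authors deposited 1 table of raw read counts per library, with 3 count columns (ignoring strand, on the gene's strand, on the opposite strand) and 4 rows that name no gene. Per the labels, positions are on mm10, and the text deposited beside each table names GENCODE M21. No source used here gives the aligner, counter or trimming. That reads aligned to several loci are in no gene's count is taken from the table's layout. Reads that differ from mm10 on a CAST allele could be lost, which is not analysed here.

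The column for the gene's strand was used, without the rows that name no gene, which held 79.0% of reads in replicate 1 and 80.8% in replicate 2. CPM, the mean and the SD over 2 libraries were computed in Python 3.11.15. Ratios between members used counts + 0.5. Ratios between libraries used CPM + 1, a minimum mean of 10 CPM and TMM factors from edgeR 4.0.16. The calculation of the latter was tested on simulated counts with set fold changes and counting error only. That test says nothing of the spread between animals. DESeq2 1.42.0 size factors, other pseudocounts, minimums, library sizes and the column ignoring strand were alternatives. With 1 group no conditions could be tested, and an exact sign-flip test over 2 libraries cannot go below 0.5, so no p is given for any ratio. The members and lists were chosen with earlier results of these data known. Named are the members, seed relatives, microRNA genes within 10000 bases, the nearest gene in level to each member, seed groups next in rank, and genes of the lists.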

Additional observations from a re-analysis of the deposited data

How the results depend on the processing

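The family's share of counted reads, 4.52%, stayed within its SD without the Mir30c genes and with Mir30f and Mir384 added (chosen after seeing the data). The single replicates gave 4.48% to 4.55%, which with 2 libraries says nothing of stability. It was 4.91% in the column that ignores strand, which lacks Mir30e but has fewer counted reads, 5.20% without the most abundant gene in the library size and 0.907% of all reads. In the column that ignores strand, where Mir30e is at 0, its log2 ratio turned to −9.26 over Mir30c-1 and to −11.00 over Mir30b, and that of Mir30d over Mir30e went from 0.61 to 16.50. The 5 other ratios between members that were recomputed kept their sign under each alternative run.

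The median log2 ratio of the members between libraries, 0.23 with TMM, was 0.061 when scaled to the total count and 0.085 without the most abundant gene, and Mir30d turned to −0.084 and −0.061 there. Under the other 6 alternatives the median lay between 0.22 and 0.28, and every member tested was above 0. A minimum of 100 CPM leaves out Mir30c-1. A replicate cannot be left out of a ratio between 2 libraries. No paired analysis was possible because there is 1 group. Counting error is largest for Mir30c-1, with 339 and 278 counts.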
